A study of Drosophila melanogaster with 16 samples.

Results

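The genes described here encode the lysosomal α-mannosidases of *Drosophila melanogaster*, *LManI* to *LManVI*, and the α-glucosidase *tobi* (target of brain insulin). They were picked by gene symbol from the platform's probe table, and all 7 were measured, each by 1 probe set that carries no other gene's name (7 of 18769 probe sets and 7 of 11982 named genes). The genes were put together after their levels in these arrays had been seen. Their differences between the groups are therefore given as a description with standard errors and without p-values.

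RNA came from whole larvae late in the third instar that were still feeding, kept at 25°C, with 1 Affymetrix Drosophila Genome 2.0 array for each pool of 10 larvae. The 3 groups were the α-amanitin-sensitive wild-type stock Canton-S without toxin (5 pools), Ama-KTT/M/2 without toxin (5 pools, called untreated), and Ama-KTT/M/2 raised from the first instar on food with α-amanitin near the LC50 of that stock (6 pools, called treated). Ama-KTT/M/2 is a single resistant line, isogenic for chromosomes 2 and 3, which was made from the Taiwanese Ama-KTT stock by crosses to a multi-balancer stock, so that what belongs to any 1 gene and what belongs to the stock cannot be told apart. The dose is 1.5 μg per g of food in the methods and 1.5 mg per g in the sample labels, and the toxin inhibits RNA polymerase II. The purpose was to find expression that differs between the stocks without toxin (untreated Ama-KTT/M/2 against Canton-S, called between the stocks here) and expression that changes with the toxin in the resistant stock (treated against untreated, called between the foods). The pools of a group were drawn at random from many tubes on a single morning, larvae on α-amanitin grew more slowly, and in whole larvae a smaller share of a cell type and less RNA per cell cannot be told apart.

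Lysosomal α-mannosidases are zinc enzymes that remove mannose residues from the sugar chains of glycoproteins delivered to the lysosome, and loss of the human enzyme causes the storage disease α-mannosidosis. Flies have several copies, whereas the α-mannosidases of the Golgi and the endoplasmic reticulum trim the same sugar chains while they are being built. *tobi* encodes a conserved α-glucosidase of fly gut and fat body that lies downstream of the insulin-like peptides and of adipokinetic hormone. Its expression is known to be raised by dietary protein and to be lowered by dietary sugar.

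In the order of annotated genes on the Release 6 assembly, *LManIII* (CG9463), *LManIV* (CG9465), *LManV* (CG9466) and *LManVI* (CG9468) follow each other on the left arm of chromosome 2 with no gene between them. *LManI* (CG5322) and *LManII* (CG6206) are next to each other elsewhere on the same arm, and *tobi* (CG11909) is on the right arm of chromosome 3. The array was designed on an older build, so no coordinates are given. Probe sequences were not used here, and cross-hybridisation among the copies was not tested.

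Every one of the 7 genes was dimmer in every pool of untreated Ama-KTT/M/2 than in any Canton-S pool, and all 7 were brighter again in every pool of treated Ama-KTT/M/2. The size of the difference set the run of 4 genes apart from the pair. The log2 fold change between the stocks was -3.74 in *LManIII*, -3.52 in *LManV* and -2.68 in *LManVI*, and *LManIV* was under the floor of 16 in untreated Ama-KTT/M/2, at least 3.94-fold lower. In *tobi* it was -1.62, and in *LManI* and *LManII* it was -0.80 and -0.82.

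**Figure D1:**
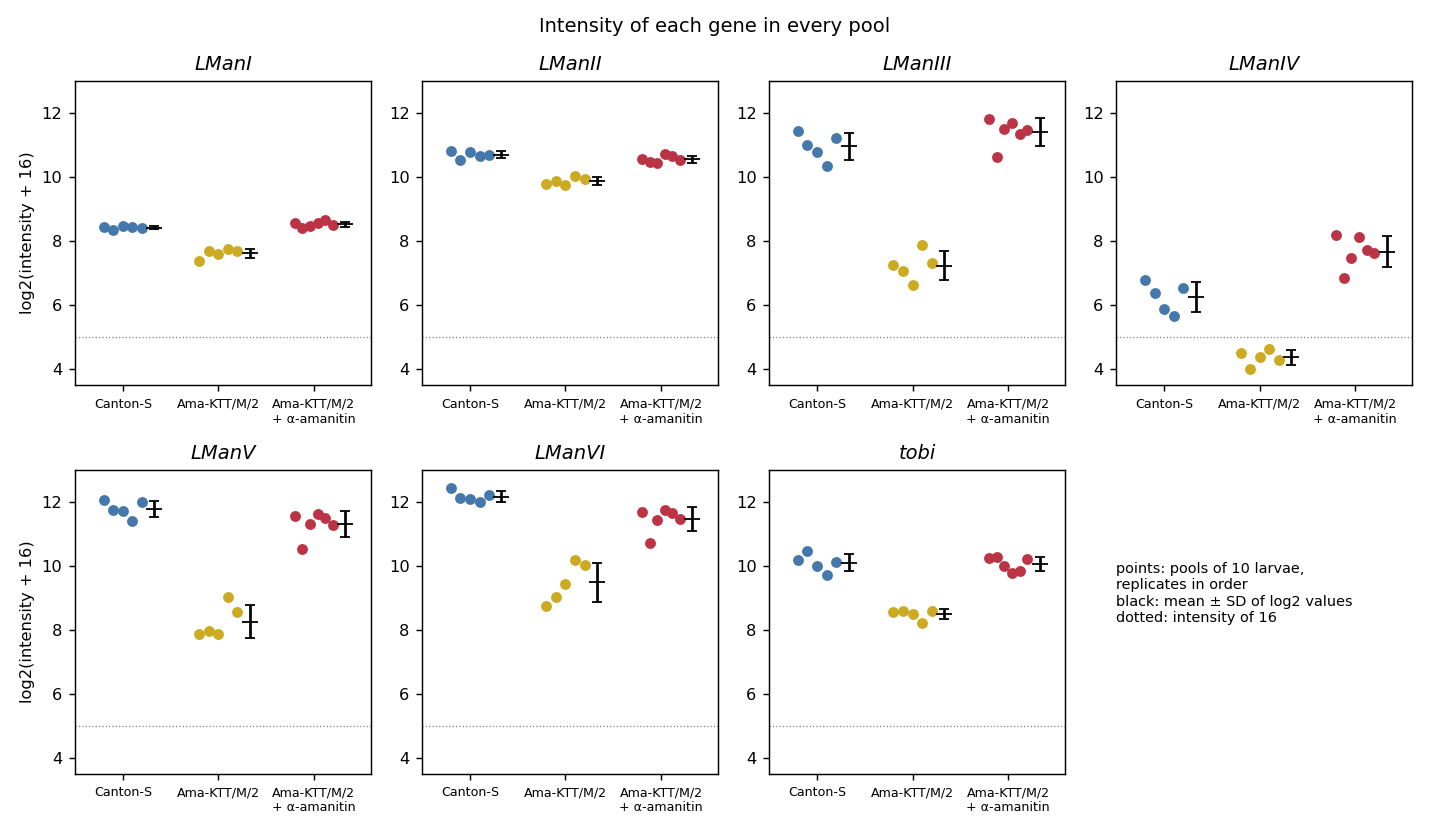
Each panel shows 1 gene, with the 16 pools of 10 larvae as points (x axis: group, replicates in order; y axis: log2(intensity + 16)) and the mean ± SD of the log2 values in black. Every pool of untreated Ama-KTT/M/2 lies below every other pool in all 7 panels, and *LManIV* lies under an intensity of 16 (dotted line) in that group.

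*LManIII* had intensities of 2770.3, 2023, 1757, 1297 and 2356 in Canton-S pools 1 to 5. In untreated Ama-KTT/M/2 the pools read 137, 117, 81.9, 219 and 143. On α-amanitin the 6 pools ranged from 1552 to 3615 with a median of 2861. The highest untreated Ama-KTT/M/2 pool was thus far under the lowest of either other group, while the pools of Canton-S and of treated Ama-KTT/M/2 overlapped. Means were 2041 ± 562 in Canton-S, 139.7 ± 50.4 in Ama-KTT/M/2 (SD, n = 5 each) and 2789.6 ± 709 on α-amanitin (n = 6). *LManIII* was 14.6-fold lower in untreated Ama-KTT/M/2 relative to Canton-S as a ratio of mean intensities (log2 fold change -3.74, standard error 0.25) and 19.97-fold higher in treated than in untreated Ama-KTT/M/2 (log2 fold change 4.18, standard error 0.24).

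*LManIV* is the next gene of the run. Its Canton-S pools read 94.6, 66.5, 42.7, 35.0 and 76.1. In untreated Ama-KTT/M/2 no pool exceeded 8.90 and the lowest was 0.0214, so that all of them lay under 16, the floor used for these arrays, and have no order among themselves. On α-amanitin the pools ranged from 99.7 to 277 (median 189). The mean in Canton-S was at least 3.94-fold, and the mean on α-amanitin at least 12.3-fold, above the floor at which untreated Ama-KTT/M/2 was set. This was the only one of the 7 genes with every pool on α-amanitin above every pool of Canton-S (197 ± 66.7 against 63.0 ± 24.4, 3.12-fold, log2 fold change 1.42, standard error 0.23). The same probe set thus read 99.7 or more in every pool of this stock on α-amanitin.

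*LManV* had intensities of 4216, 3433, 3299.8, 2657 and 4013 in Canton-S. The pools of untreated Ama-KTT/M/2 read 216, 234, 215, 499 and 358. On α-amanitin they ranged from 1468 to 3145 with a median of 2687. Ama-KTT/M/2 was 11.6-fold lower than Canton-S (304 ± 124 against 3524 ± 618, SD, n = 5 each), and the treated pools were 8.47-fold higher than the untreated ones (2579 ± 606, n = 6). The pools on α-amanitin and those of Canton-S overlapped, with a log2 difference of -0.47 (standard error 0.22).

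*LManVI*, at the end of the run, had intensities of 5498, 4379.6, 4331, 4041 and 4676 in Canton-S. In untreated Ama-KTT/M/2 they were 412, 507, 676, 1138 and 1014, a wider relative spread than in either other group (42.2% of the mean, against 12.2% in Canton-S and 22.2% on α-amanitin). The pools on α-amanitin ranged from 1671 to 3414 (median 2997) and all lay below the Canton-S pools. The ratio of mean intensities was 6.12 between the untreated stocks and 3.81 between the foods, and Canton-S was 1.61-fold above treated Ama-KTT/M/2 (log2 fold change -0.71, standard error 0.23).

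The neighbouring pair moved less. *LManII*, the copy usually taken as the counterpart of the human lysosomal enzyme, had 1779.7, 1465, 1757, 1590.2 and 1647 in Canton-S and 859.9, 916, 852, 1035 and 966 in untreated Ama-KTT/M/2. On α-amanitin its pools ranged from 1367 to 1673 (median 1478) and overlapped those of Canton-S. The ratio of mean intensities was 1.78 between the stocks (log2 fold change -0.82, standard error 0.07) and 1.62 between the foods (0.69, standard error 0.07). *LManI* was similar in size, with means of 325 ± 11.4 in Canton-S, 181 ± 18.8 in untreated Ama-KTT/M/2 and 353 ± 21.2 on α-amanitin. Its pools lay between 307 and 338, between 149.9 and 198, and between 327 and 384. Neither gene reached the 2-fold limit in any comparison, although the untreated Ama-KTT/M/2 pools did not overlap with the others.

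*tobi* lay between the run and the pair in the size of its differences. Its intensities were 1156, 1392, 1007, 827 and 1101 in Canton-S and 361, 366, 340.2, 281 and 366 in untreated Ama-KTT/M/2. On α-amanitin they ranged from 861 to 1227 (median 1086), and overlapped the Canton-S pools. The mean was 3.20-fold lower in untreated Ama-KTT/M/2 relative to Canton-S (343 ± 36.3 against 1097 ± 207, log2 fold change -1.62, standard error 0.13) and 3.08-fold higher in treated than in untreated Ama-KTT/M/2 (1056 ± 161, log2 fold change 1.57, standard error 0.12). Between α-amanitin and Canton-S the log2 difference was -0.05 (standard error 0.12).

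**Figure D2:**
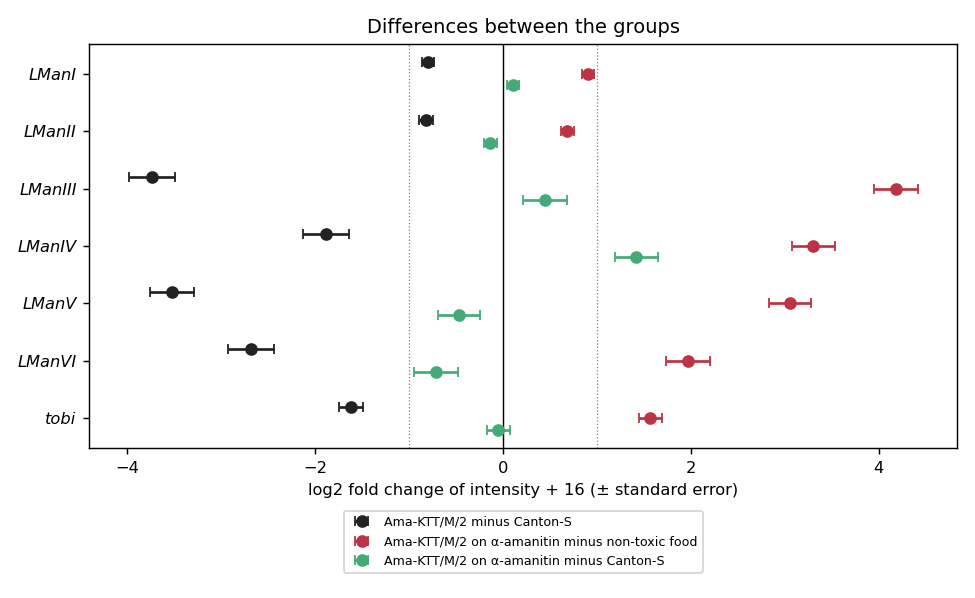
Log2 fold changes of intensity + 16 (x axis) with their standard errors for the 7 genes (y axis) in the 3 comparisons, from the limma fit over 16 arrays, with dotted lines at 2-fold. The differences of untreated Ama-KTT/M/2 from Canton-S lie between -3.74 and -0.80, those of treated from untreated Ama-KTT/M/2 between 0.69 and 4.18, and those of treated Ama-KTT/M/2 from Canton-S between -0.71 and 1.42.

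Counted by the limits used for the whole array (limma, adjusted p under 0.05 over 18769 probe sets and at least 2-fold), 5 of the 7 genes were called lower in untreated Ama-KTT/M/2 relative to Canton-S (2.42% of all probe sets) and none higher (3.27%). The genes without a call were *LManI* and *LManII*. The pools did not overlap in 7 of the 7 genes, against 31.7% of all probe sets in either direction and 12.9% with Ama-KTT/M/2 lower. Between the foods, the same 5 genes were called higher on α-amanitin (1.83% of all probe sets) and none lower (1.11%), and the pools of 7 of the 7 did not overlap (21.7% in either direction, 10.2% with the treated pools higher). Over the whole array 0.922% of the probe sets were called lower and then higher in this way. Both comparisons share the 5 arrays of untreated Ama-KTT/M/2 and the genes were chosen on them, so the counts describe the choice. Between treated Ama-KTT/M/2 and Canton-S only *LManIV* was called higher (1.53% of all probe sets) and none of the 7 was called lower (1.63%). There *LManIV* was higher without overlap (11.1%), *LManVI* was lower without overlap (7.7%, and 18.7% in either direction), and the other 5 genes overlapped. The median log2 fold change of the 7 genes was -1.88, 1.97 and -0.05 in these comparisons, and that of all probe sets was 0.01, 0.02 and 0.04. The -1.88 is the fitted value of *LManIV* and depends on the offset: with *LManIV* at its bound the median was -1.98, without *LManIV* it was -2.15, and with offsets of 1 and 64 it was -2.71 and -1.499.

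The order of the 3 groups differed among the genes above the common low point. In *LManII*, *LManV*, *LManVI* and *tobi* the mean of Canton-S was the highest, and in *LManI*, *LManIII* and *LManIV* that of treated Ama-KTT/M/2. Only in *LManIV* and *LManVI* were the upper groups separate in their pools. Profiles centred on their own mean over the 16 pools were closest between *LManI* and *LManII* (root mean square difference 0.13 on the log2 scale), followed by *tobi* with *LManI* (0.43), *tobi* with *LManII* (0.48), *LManV* with *LManVI* (0.49) and *LManIII* with *LManV* (0.53). *LManIV* was no closer than 0.77 to any other member, its nearest being *LManIII*. The profiles were centred and not scaled, so this measure depends on the size of the differences as well as on their pattern. Genes with small differences lie close together on it for that reason alone.

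Within the groups, the pools that were low or high were largely the same for the genes of the run. In Canton-S, pool 4 was the lowest for *LManIII*, *LManIV*, *LManV*, *LManVI* and *tobi*, and pool 1 was the highest for 5 of the 7 genes. On α-amanitin, pool 2 was the lowest for *LManI*, *LManIII*, *LManIV*, *LManV* and *LManVI*. The same pool was the highest of its group for *tobi* (1227). In untreated Ama-KTT/M/2, pool 4 was the highest for the 5 α-mannosidase genes other than *LManIV*, whose pools have no order there, and the lowest for *tobi* (281, other pools 340.2 to 366). The mean log2 value of *LManIII* to *LManVI* deviated from the group mean by -0.77 in pool 2 on α-amanitin and by -0.43 in Canton-S pool 4. Without both of these pools the log2 fold changes between the stocks and between the foods were -3.89 and 4.34 in *LManIII*, -3.62 and 3.21 in *LManV*, -2.73 and 2.12 in *LManVI* and -1.71 and 1.53 in *tobi*.

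Genes whose expression starts near the end of larval life moved with this pattern. The 6 glue genes measured (*Sgs1*, *Sgs3*, *Sgs4*, *Sgs5*, *Sgs7* and *Sgs8*), which are expressed in the salivary glands, summed to intensities between 6.04 and 14.5 in the 5 pools of untreated Ama-KTT/M/2. In Canton-S they summed to between 1639.8 in pool 4 and 26436 in pool 5, and on α-amanitin to between 8.04 in pool 2 and 51929 in pool 4. Pool 2 on α-amanitin therefore had a glue gene sum within the range of the untreated Ama-KTT/M/2 pools. In that pool *LManIII* was at 1552, *LManV* at 1468 and *LManVI* at 1671, against at most 219, 499 and 1138 in untreated Ama-KTT/M/2. For the whole list of 10 salivary gland markers, 6 were called lower (2.42% of all probe sets) and 1 (*ng4*) higher (3.27%) in untreated Ama-KTT/M/2 relative to Canton-S, and 6 were called higher on α-amanitin (1.83%). Without the fold limit, for which no share of all probe sets is given, 3 were higher and 6 lower between the stocks. *ng2* (log2 fold change 0.91, adjusted p = 0.00593, limma) and *ng3* (0.60, adjusted p = 0.00326) were among the higher ones. Between the foods 6 were higher and 2 lower, the latter being *ng1* (-0.55, adjusted p = 0.0417) and *ng2* (-0.67, adjusted p = 0.0343). The summed level of these 10 was 12158 to 34970 in Canton-S, 12547 to 16107 in untreated Ama-KTT/M/2 and 16418 to 59636 on α-amanitin, and the 6 *Sgs* genes had means under 16 in untreated Ama-KTT/M/2. The part of larval stage in the differences was not tested.

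The 4 measured fat body markers (of 7 listed) summed to 24844 to 41680 in Canton-S, to 11381 to 13095 in untreated Ama-KTT/M/2 and to 15092 to 42646 on α-amanitin, where pool 2 was again the lowest, as pool 4 was in Canton-S. The storage protein gene *Lsp2* and the fat body gene *Fbp2* were called lower in untreated Ama-KTT/M/2 relative to Canton-S, and these and *Fbp1*, the gene of a storage protein receptor, were called higher on α-amanitin. *Fbp1* and *Fbp2* had means under 16 in untreated Ama-KTT/M/2. In contrast, *apolpp*, which encodes the lipid carrier of the haemolymph, read 11790 ± 949 in Canton-S, 11623 ± 222 in untreated Ama-KTT/M/2 and 11663 ± 477 on α-amanitin. *Fbp1*, *Fbp2* and *Lsp2* together summed to 2795 in pool 2 on α-amanitin and to between 11.9 and 1221 in the untreated Ama-KTT/M/2 pools. The part of the fat body in the differences was not tested.

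The 8 measured midgut markers (of 10) had sums of 43006 to 47548 in Canton-S, 27750 to 32311 in untreated Ama-KTT/M/2 and 23974 to 29044 on α-amanitin. None had a mean under 16. *Jon66Cii* made most of the difference between the stocks (14418 in Canton-S and 2664 in untreated Ama-KTT/M/2). Without it the other 7 summed to 27248 to 33065, 25022 to 29642 and 22208 to 27656, and the pools of the stocks overlapped. *GATAe*, which encodes a transcription factor of the gut, had log2 fold changes of 0.22 between the stocks and -0.34 between the foods. Of the 8, *Jon66Cii* and *thetaTry*, both genes of gut serine proteases, were called lower between the stocks (2.42% of all probe sets). *Jon66Cii* was 5.41-fold lower (adjusted p = 3.72e-10, limma) and had a log2 fold change of -0.65 between the foods. *thetaTry* was 2.64-fold lower in untreated Ama-KTT/M/2 relative to Canton-S (adjusted p = 2.86e-09, limma) and 2.50-fold higher in treated than in untreated Ama-KTT/M/2 (adjusted p = 1.61e-08). Without the fold limit it was the only 1 of the 8 higher between the foods, and 4 were lower, among them *betaTry* (log2 fold change -0.40) and *lambdaTry* (-0.71). The share of all probe sets without the fold limit is not given, so these counts are not set against the whole array. In treated Ama-KTT/M/2 relative to Canton-S *Jon66Cii* (8.41-fold) and *lambdaTry* (2.20-fold) were called lower (1.63% of all probe sets). The 5 haemocyte markers summed to 6373 to 8693 in Canton-S, 3672 to 5511 in untreated Ama-KTT/M/2 and 5304 to 8163 on α-amanitin. The 2 muscle markers summed to 6194 to 7779, 4189 to 6198 and 6172 to 7016, and the 2 measured Malpighian tubule markers to 1141 to 1562, 507 to 569.6 and 462 to 619.5. Between the stocks *NimC1* of haemocytes was called higher (log2 fold change 1.71), whereas *Hml* (-0.68), *eater* (-0.80), *PPO1* (-0.87) and *PPO2* (-0.74) were lower at an adjusted p under 0.05 and under the 2-fold limit. *salt* of the tubules was called lower. None of these other markers had a mean under 16 in any group, and their part in the differences was not tested.

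**Figure D3:**
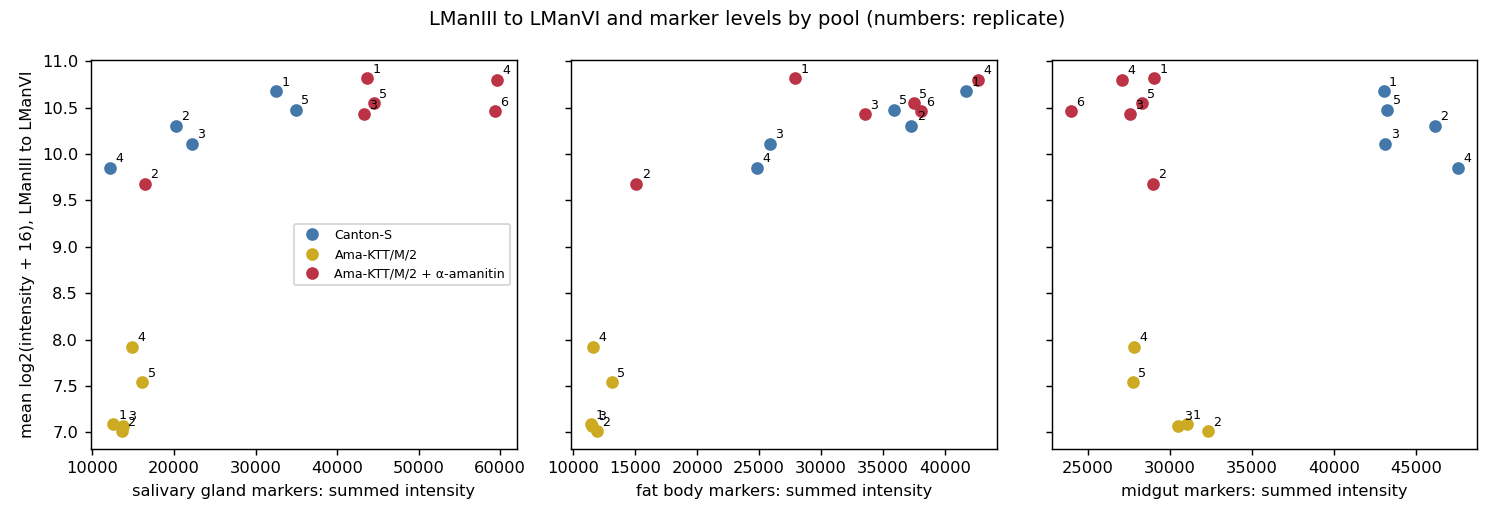
Each point is a pool (numbers: replicate), placed by the summed intensity of a marker list (x axes: salivary gland, fat body, midgut) and the mean log2(intensity + 16) of *LManIII* to *LManVI* (y axis). Pool 2 on α-amanitin and pool 4 of Canton-S have salivary gland sums of 16418 and 12158, against 12547 to 16107 in untreated Ama-KTT/M/2, and *LManIII* to *LManVI* means of 9.68 and 9.85 against at most 7.92 in that group. The *Sgs* sum of that Canton-S pool, 1639.8, lies above the 6.04 to 14.5 of untreated Ama-KTT/M/2, and that of pool 2 on α-amanitin, 8.04, lies within it.

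Of 30 annotated genes, 5 on each side of the run, of the pair and of *tobi*, 23 were measured, and 0 were called between the untreated stocks (limma, 5.68% of all probe sets called in either direction), although 14 had an unadjusted p under 0.05 and 13 an adjusted one. Their median log2 fold change was -0.02, with a range from -0.66 to 0.74, but the places differed. Around the run the median of 6 genes was -0.23 between the stocks and 0.24 between the foods, and without the fold limit 3 were lower and 1 higher, then 4 higher and none lower. The 3 lower genes were near the floor: *CG12438*, *CG42710* and *CG32986*. The last had means of 18.4 ± 3.62 in Canton-S and 6.24 ± 4.99 in untreated Ama-KTT/M/2. All 3 were also among the 4 higher between the foods, where *CG42710* had both means under 16 (11.6 ± 2.03 and 6.97 ± 2.27). The other of these 4 was *CatB*, with means of 31.5 ± 6.82 in untreated and 76.6 ± 28.9 in treated Ama-KTT/M/2 and no overlap of the pools. Its ratio of means was 2.43, and its log2 fold change of 0.92 (adjusted p = 0.000962, limma) was under the limit for a call. Around the pair the median of 9 was 0.23 and 0.05, with 6 higher and 1 lower between the stocks, and around *tobi* that of 8 was 0.02 in both comparisons. No share of all probe sets without the fold limit is given to set beside these counts. The genes next to the run, *CG12438* and *CG42710*, were dim, at 30.0 ± 3.35 and 16.5 ± 2.18 in Canton-S and 22.4 ± 4.07 and 6.97 ± 2.27 in untreated Ama-KTT/M/2, lower in both cases (adjusted p = 0.0127 and 3.94e-05, limma) and under the 2-fold limit. *rha*, next to *tobi*, had a log2 fold change of -0.03. Next to the pair, the channel gene *ppk10* had means under 16 in both stocks and the pseudouridine synthase gene *RluA-1* was higher in Ama-KTT/M/2 by less than 2-fold (106 ± 15.9 against 61.7 ± 9.27, log2 fold change 0.65, adjusted p = 0.000119). Between the foods only *Muc96D*, a mucin gene 5 places from *tobi*, was called (2.94% of all probe sets in either direction). It was lower on α-amanitin (921 ± 73.6 against 5456 ± 558, log2 fold change -2.54, adjusted p = 1.66e-12), opposite to *tobi*.

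**Figure D4:**
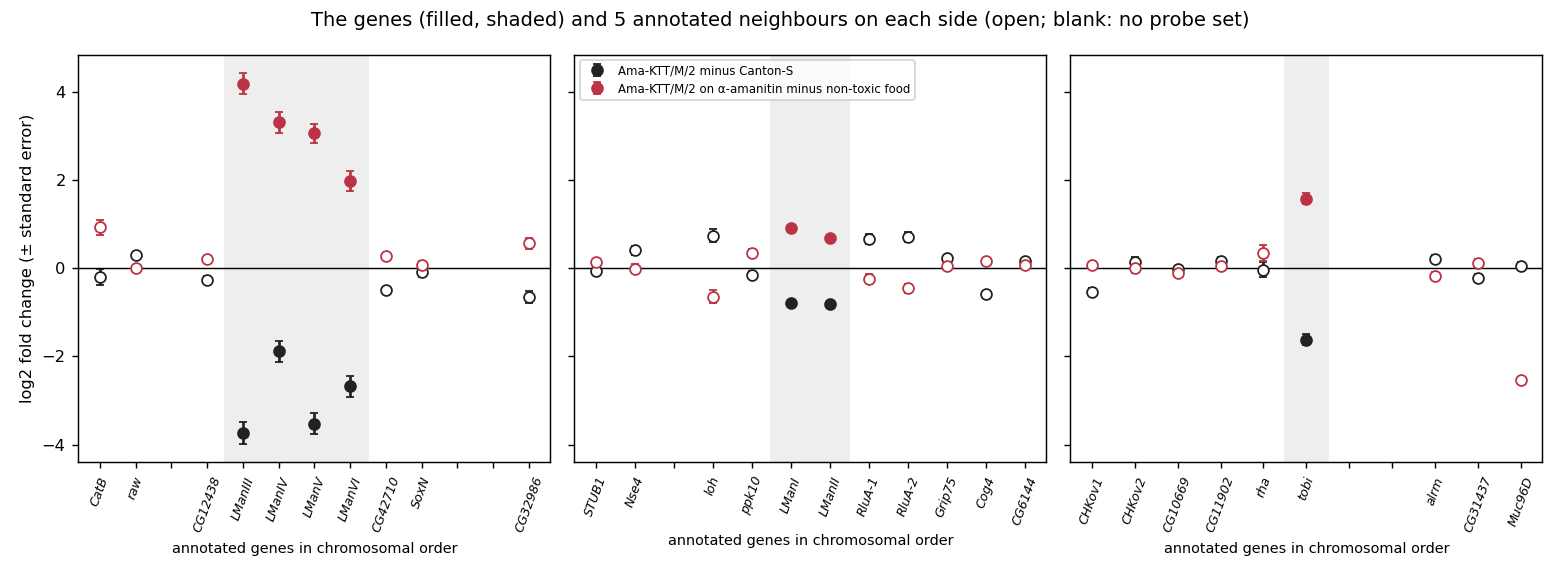
Log2 fold changes with standard errors (y axis) of the α-mannosidase genes and *tobi* (filled points on grey) and of the 5 annotated genes on each side (open points; positions without a probe set left blank), in chromosomal order (x axis). Apart from *Muc96D* at -2.54, the neighbours lie between -0.66 and 0.92 in both comparisons, while *LManIII* to *LManVI* reach -3.74 and 4.18.

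Genes of the enzymes that build and trim N-glycans before the lysosome differed by less than 2-fold in each comparison. Of 12 such genes 11 were measured, and limma called 0 in any comparison at the 2-fold limit. Of all probe sets 5.68% were called in either direction between the stocks and 2.94% between the foods. Between treated Ama-KTT/M/2 and Canton-S the share was 3.16%, so 0 calls among 11 genes do not set this list apart. Dropping the fold limit gave 1 higher and 1 lower gene between the stocks, and 3 of the 11 had an unadjusted p under 0.05 there (4 between the foods and 7 between treated Ama-KTT/M/2 and Canton-S), none of them at 2-fold. No share of all probe sets is given for the counts without the fold limit. Their log2 fold changes lay between -0.27 and 0.25 between the stocks (median -0.01) and between -0.24 and 0.31 between the foods (median 0.06). Among them, the Golgi α-mannosidase genes *alpha-Man-Ia*, *alpha-Man-Ib*, *alpha-Man-IIa* and *alpha-Man-IIb* had log2 fold changes of -0.02, -0.01, -0.05 and 0.19 between the stocks, and of -0.20 (adjusted p = 0.011), 0.09, 0.31 (adjusted p = 0.00647) and -0.24 between the foods. *GCS2alpha*, which encodes a glucosidase subunit of the endoplasmic reticulum, differed between the stocks by 0.10 (adjusted p = 0.111).

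Other lysosomal hydrolases differed in part. Of 21 listed glycosidases and sulfatases of the lysosome 15 were measured. In untreated Ama-KTT/M/2 relative to Canton-S 1 was called lower (2.42% of all probe sets) and none higher (3.27%). In treated relative to untreated Ama-KTT/M/2 2 were called higher (1.83%) and none lower (1.11%). *Naglu*, whose human counterpart cleaves N-acetylglucosamine from heparan sulfate, fell from 123 ± 9.08 in Canton-S to 28.5 ± 7.11 in Ama-KTT/M/2 (log2 fold change -1.65, adjusted p = 1.89e-07, limma) and was 3.09-fold higher on α-amanitin (88.2 ± 25.2, adjusted p = 1.25e-05). *Gal*, the β-galactosidase gene, was 2.39-fold higher on α-amanitin (1113 ± 161 against 466.3 ± 51.3, adjusted p = 2.55e-07) without having been lower in untreated Ama-KTT/M/2 relative to Canton-S (386 ± 29.4, log2 fold change 0.26, adjusted p = 0.0532). The β-mannosidase gene *beta-Man*, which acts on the last mannose of the same sugar chains, had a log2 fold change of -0.02 between the stocks. Set against Canton-S, treated Ama-KTT/M/2 had 2 calls, in that *Gal* was higher (2.89-fold, adjusted p = 5.25e-09) and the sulfatase gene *CG7408* lower (2.89-fold, adjusted p = 4.18e-08), where 3.16% of all probe sets were called in either direction. The list's median log2 fold change was -0.02 between the stocks and 0.20 between the foods.

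Of 16 general lysosomal genes, all measured, *Lerp* was the only one called between the stocks or between the foods, and limma called 0 between treated Ama-KTT/M/2 and Canton-S (11 had an unadjusted p under 0.05). Of all probe sets 5.68%, 2.94% and 3.16% were called in either direction in these comparisons. *Lerp*, which encodes the receptor that sorts enzymes to the lysosome, was 2.76-fold lower in untreated Ama-KTT/M/2 relative to Canton-S (341 ± 23.2 against 939.9 ± 188, adjusted p = 2.59e-06, limma) and 2.81-fold higher on α-amanitin (956 ± 247, adjusted p = 6.07e-06). Without the fold limit, 7 were lower and 2 higher between the stocks, and 11 were higher and 1 lower between the foods. The cathepsin genes *CtsK1* (log2 fold change -0.95 between the stocks, adjusted p = 3.38e-08, and 0.69 between the foods) and *CtsB* (-0.76 and 0.94) were among them, under the 2-fold limit. The share of all probe sets without the fold limit is not given here, so these counts are not set against the whole array. In 6 of the 16 genes every pool of untreated Ama-KTT/M/2 lay below every other pool, as did 3 of the 15 glycosidases and sulfatases and none of the 11 N-glycan genes, against 4.78% of all probe sets. The median of the list was -0.23 between the stocks and 0.33 between the foods.

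**Figure D5:**
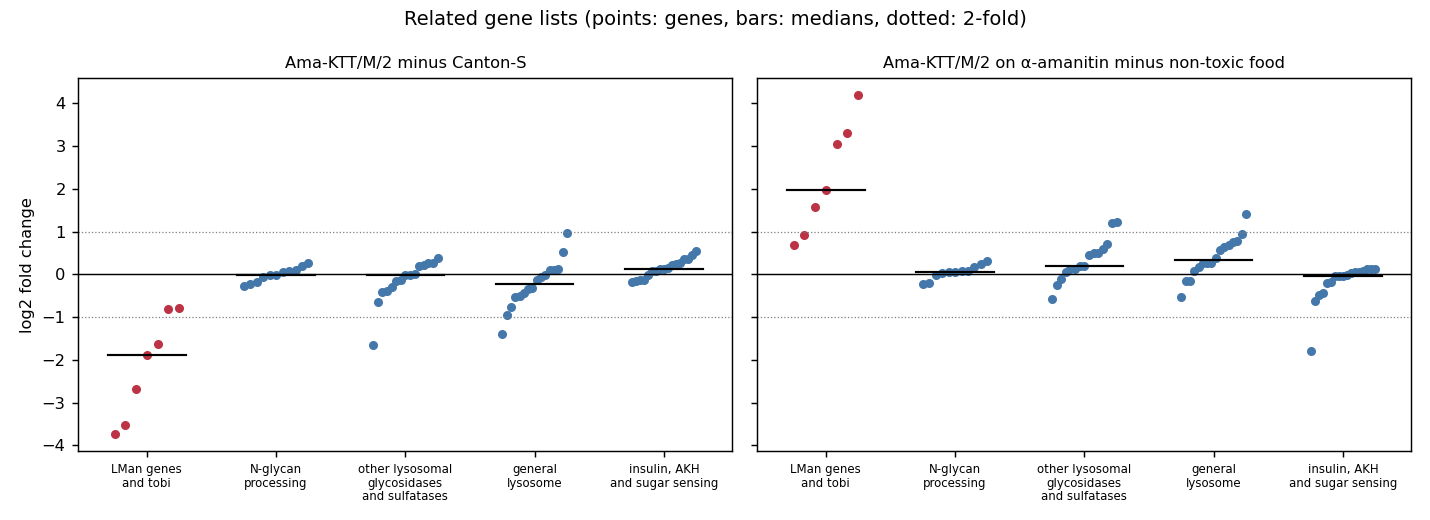
Log2 fold changes (y axis) of the α-mannosidase genes with *tobi* and of the measured genes of 4 related lists (x axis), as points with the median as a bar and dotted lines at 2-fold, for the 2 comparisons that share untreated Ama-KTT/M/2. The medians of the lists lie between -0.23 and 0.33, and those of the 7 genes at -1.88 (fitted value of *LManIV*, which has a mean under 16; -2.15 without that gene) and 1.97.

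For *tobi*, the genes of insulin, adipokinetic hormone and sugar sensing were set beside it. Of 23 listed genes 17 were measured, and limma called 0 between the stocks (5.68% of all probe sets in either direction, median log2 fold change of the list 0.13). Without the fold limit, for which no share of all probe sets is given, 7 were higher and none lower, and 7 had an unadjusted p under 0.05. Between the foods none was higher and 5 were lower without the fold limit, among them *daw* (log2 fold change -0.64), which encodes an activin-like ligand, and *Mondo* (-0.44), which encodes a sugar-sensing transcription factor. There only *sug* was called (2.94% of all probe sets in either direction), the gene of the transcription factor sugarbabe, which is known to be induced by dietary sugar. *sug* was 3.78-fold lower in treated than in untreated Ama-KTT/M/2 (111 ± 21.4 against 422 ± 59.0, adjusted p = 2.70e-08, limma), where *tobi* was higher. In treated Ama-KTT/M/2 *sug* was also 2.56-fold lower than in Canton-S (285 ± 47.5 in Canton-S, adjusted p = 5.74e-07, limma). In that comparison the pools of *tobi* overlapped (log2 fold change -0.05, standard error 0.12). Between the stocks *sug* was higher in Ama-KTT/M/2 by a log2 fold change of 0.54 (adjusted p = 0.00222), under the limit, and *tobi* was lower. *Akh* and *Ilp2*, the genes of the adipokinetic hormone and of an insulin-like peptide, had log2 fold changes of -0.15 and 0.13 between the stocks. *AkhR*, the gene of the adipokinetic hormone receptor, was higher between the stocks (log2 fold change 0.37, adjusted p = 0.0322, limma). Between the foods it was lower (-0.48, adjusted p = 0.00734), and both differences were under the 2-fold limit. Any link between the genes of this list and *tobi* was not tested.

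Over all 16 pools, the profile most like that of *LManI* was *CG6891* (root mean square difference 0.10 on the log2 scale, out of 8659 probe sets compared), followed by *CG1544* (0.10) and *Fpps* (0.11), the gene of farnesyl pyrophosphate synthase. Nearest to *LManII* was *CtsK1* (0.11; means of 2092 in Canton-S, 1079 in untreated Ama-KTT/M/2 and 1751 on α-amanitin), followed by *Hgsnat* (0.13), which encodes an acetyltransferase of the lysosome, and *heca* (0.13). For the genes of the run the nearest profiles were less close. *LManVI* was nearest to *CG32407* (0.20) and *CARPB* (0.25), a gene related to carbonic anhydrases, followed by *CG31075* (0.32). *LManV* was nearest to *Cyp4d8* (0.37), a cytochrome P450 gene with means of 546, 71.4 and 504, then to *CG17107* (0.47) and *CG6283* (0.51). *LManIV* was nearest to the lipase-like gene *CG6271* (0.40), then to *Prat2* (0.48) of purine synthesis and *Alp1* (0.52), an alkaline phosphatase gene. *LManIII* had no profile closer than 0.55 (*CG17107*), and the fatty acid synthase gene *FASN3* and *CG43084* followed at 0.59 and 0.62. *tobi* was nearest to *thetaTry* (0.25; means of 2236, 847 and 2116), then to *CG4363* and *CG9757* (0.28 each). These likenesses are over pools of the same 3 groups and are given without a test. The profiles were not scaled, so larger distances are found for genes with larger differences, and the distances do not compare likeness of pattern between genes.

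Median intensities of the 16 arrays lay between 62.4 and 72.9, and 19.3% to 22.9% of the probe sets of an array were under 16. No 2 arrays, of 120 pairs, held identical values. The labels do not tie a pool to a tube or a day, and no source used here gives the sex of the larvae. The pools of a group were drawn from across the same tubes on a single morning. The p-values of the other genes therefore measure the spread between such pools, and do not cover the spread between separate rearings or between lines.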

How the data were processed

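The deposited intensities are on a linear scale. The authors extracted the image data in Affymetrix Expression Console 1.2 and made probe set values with PLIER, with quantile normalization between arrays and adjustment for mismatch probes. Quantile normalization draws the arrays towards 1 overall distribution, so only differences relative to the other probe sets are measured. The deposited probe set values still differed somewhat between arrays, with medians of 62.4 to 72.9. Of 18952 probe sets 183 controls were left out. Names came from the platform table, updated through the Release 6 gene table: 13647 probe sets have 1 gene, 402 several and 4720 none named here, and lists used the brightest probe set of a gene. No value column was left unused.

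The scale of analysis was log2(intensity + 16), fitted by lmFit and eBayes (limma 3.58.1, R 4.3.3) over 16 arrays in 3 groups, with Benjamini-Hochberg adjustment over 18769 probe sets, and the step was tested on simulated data. The fold change on this scale understates differences of dim probe sets; ratios are of mean intensities, and where a mean was under 16, that mean was set to 16 and the ratio is a lower bound. The number of arrays limits the precision. Counts without the fold limit are given without the share of all probe sets, and so are not measured against the whole array. RankProd, the methods' test for single genes, was not run. The genes and lists were chosen with earlier results of these data known. The text names all 7 genes, called members of each list (or bright ones), the called chromosomal neighbours and the 3 most alike profiles of each gene; other named genes were chosen after their values were seen. Promoter and protein sequences were not analysed here. Alternatives were offsets of 1 and 64, a filter at a mean of 64, 2 further normalizations, pairwise fits, trended variance, array weights, a replicate block and leaving out each pool. Figures were drawn with Python 3.11.15.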

Additional observations from a re-analysis of the deposited data

Results flagged for a closer look

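Groups of 5 or 6 pools were searched for a single pool far from the rest, by the gap to its nearest neighbour over the range of the group on the log2 scale (Dixon's limit). Of 21 groups, 3 held such a pool, and chance gives about 1 in 20. *LManV* and *LManVI* were low in pool 2 on α-amanitin, at 1468 and 1671, with gaps of 0.69 and 0.70 of the range. *tobi* was low in pool 4 of untreated Ama-KTT/M/2, at 281 (0.72 of the range). Pool 4 was also the lowest for *tobi* in Canton-S (827) and on α-amanitin (861), without being flagged there.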

How the results depend on the processing

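Under 26 alternatives, no difference of the 7 genes that was called changed sign. The calls of *LManIII*, *LManV*, *LManVI* and *tobi* kept their side of the limits in the comparisons that involve untreated Ama-KTT/M/2, and *LManI* and *LManII* stayed under them in all 3. *LManIV* depended on the offset, as a gene near the floor: with an offset of 64 its log2 fold change between the stocks was -0.86, under the limit, and with an offset of 1 it was -3.71; between the foods the values were 1.88 and 5.35. The difference of *tobi* between α-amanitin and Canton-S, which was not called, turned from -0.05 to 0.04 without Canton-S pool 2. Leaving out pool 4 of Canton-S and pool 2 on α-amanitin together, chosen after seeing the data, left *LManIII* at -3.89 and 4.34 and left 5 genes called lower and 5 higher. When pools were left out singly, *LManIII* ranged from -3.90 to -3.58 and from 4.03 to 4.35.

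Counts of other genes were small. With an offset of 64, 1 lysosomal glycosidase or sulfatase in place of 2 was called between the foods and 1 in place of 2 between α-amanitin and Canton-S, and 0 insulin and sugar sensing genes in place of 1. After another quantile normalization 2 general lysosomal genes in place of 1 were called between the stocks and 2 between the foods; between the stocks the count was also 2 without both pools named above, and 1 to 2 when pools were left out singly (2 without Canton-S pool 4). With an offset of 1, 2 neighbours in place of 0 were called between the stocks and 3 in place of 1 between the foods; the latter count was 2 without both pools and 1 to 2 with single pools left out (2 without pool 2 on α-amanitin). Over all probe sets the higher and lower calls were 613 and 454 between the stocks, 903 and 823 with an offset of 1, and 383 and 266 with an offset of 64. Between the foods they were 344 and 208, 738 and 301 with an offset of 1, and 195 and 138 with an offset of 64, and between treated Ama-KTT/M/2 and Canton-S 288 and 306, 521 and 445, and 179 and 189.

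Same-numbered pools did not deviate together in all groups, so the numbers were not treated as pairs. Correlations of their deviations ran from -0.03 to 0.39 between untreated and treated Ama-KTT/M/2, and from -0.52 to 0.08 between Canton-S and treated Ama-KTT/M/2. In *tobi*, however, pool 4 was the lowest in all 3 groups (827, 281 and 861). The block lowered its standard error from 0.13 to 0.08 between the stocks and from 0.12 to 0.08 between the foods. A shared effect of the replicate number on *tobi* was not tested. With a replicate block *LManIII* was at -3.74 and 4.17 and *tobi* at 1.54 between the foods, and the block changed no call of the 7 genes; over all probe sets the higher and lower calls were 614 and 451 between the stocks and 335 and 210 between the foods.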
